A study of Homo sapiens with 4 samples.

Results

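The unfolded protein response and the ATF4 pathway are paired stress programmes, and 39 of their genes were followed here in the MelJuSo line, which derives from a human melanoma of the skin. The genes were chosen by name, from their roles in protein folding in the endoplasmic reticulum (ER), degradation of misfolded proteins, stress sensing and the ATF4 response. Current gene symbols, matched through the platform annotation, gave 46 probes for 37 of the 39 genes, out of 48803 probes. No probe was named here for HERPUD1 or for ERN1, and the probes of PDIA3, PSAT1 and PHGDH were not detected on any array. The remaining 34 genes were measured, among 10077 genes with a probe detected on at least 1 array, and 29 of the 34 were detected on all 4 arrays.

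The study had 4 groups of 1 array each. Aclarubicin (10 µM), doxorubicin (9 µM), or etoposide (10 µM) plus aclarubicin (10 µM) was on the cells for 2 h and then removed by washing, and total RNA came from cells 1 day later. The fourth group was untreated, with no time stated. Whether etoposide and aclarubicin were given together or in turn is not stated either. All 3 drugs act on topoisomerase II: doxorubicin and etoposide trap it on cleaved DNA, and aclarubicin, like doxorubicin an anthracycline, keeps it off DNA. A single array per group leaves the spread between replicates unmeasured. Differences therefore carry no test, and each describes a pair of arrays rather than conditions. Comparisons with untreated cells share 1 array, and those with aclarubicin share another.

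Background on the pathway helps in reading the values. When unfolded proteins build up in the ER, the membrane sensors IRE1 (encoded by ERN1), ATF6 and PERK (encoded by EIF2AK3) become active. IRE1 splices the mRNA of XBP1 into the form that encodes an active factor, and with cleaved ATF6 this factor raises chaperone and degradation genes. PERK phosphorylates the translation factor eIF2, which slows translation in general and favours that of ATF4; kinases that sense amino acid lack or other stress feed into the same step, so ATF4 targets also answer to stress outside the ER. Probe signal measures mRNA level, not splicing, phosphorylation or protein.

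The promoters show which of these genes carry the best known control elements of both programmes. Windows of 250 bases before each transcription start were read from RefSeq on GRCh38.p14 for 36 of the 39 genes. The ER stress response element (ERSE), searched on both strands as CCAAT and CCACG with 9 bases of any kind between them, was present in 7 of the 36, against 0.0916% of 27305 genes with such a window. The related ERSE-II, ATTGG and CCACG with 1 base between them, was in 3 of the 36 (HERPUD1, SDF2L1 and HYOU1), against 0.0659% of all genes. The C/EBP-ATF element through which ATF4 acts, searched as TTNCATCA, was in 4 of the 36 (HERPUD1, CHAC1, ASNS and CEBPG), against 3.89% of all genes, and the core TGACGTG of the XBP1 element was in HYOU1 alone, overlapping an ERSE-II there, against 2.05%. The elements are known from the control of these same programmes, and the genes were chosen for their roles in them. The higher shares among the 36 are therefore no independent result. A match describes letters in a window and does not show binding. The stretches below belong to genes that the results turn on. They read 5′ to 3′ on the strand of the gene, with the motif in capitals, and a motif that lies on the opposite strand appears as its reverse complement.
HSPA5: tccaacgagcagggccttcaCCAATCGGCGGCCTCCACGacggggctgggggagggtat
HSP90B1: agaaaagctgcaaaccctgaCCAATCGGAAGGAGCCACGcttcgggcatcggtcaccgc
CANX: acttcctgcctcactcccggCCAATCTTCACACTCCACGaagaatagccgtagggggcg
CALR: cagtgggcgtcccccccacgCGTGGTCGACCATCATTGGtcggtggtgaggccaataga
PDIA6: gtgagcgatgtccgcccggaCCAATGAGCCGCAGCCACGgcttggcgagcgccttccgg
XBP1: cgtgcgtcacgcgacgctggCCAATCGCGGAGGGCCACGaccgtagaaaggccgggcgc
HYOU1: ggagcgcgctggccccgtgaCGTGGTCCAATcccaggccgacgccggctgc
ASNS: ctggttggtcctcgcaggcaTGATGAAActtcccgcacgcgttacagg
CEBPG: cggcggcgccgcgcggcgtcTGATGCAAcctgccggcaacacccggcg

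The first 6 stretches hold an ERSE, HYOU1 an ERSE-II, and ASNS and CEBPG the C/EBP-ATF element. On GRCh38.p14 they lie at chr9:125241371-125241429 (HSPA5, minus strand), chr12:103930196-103930254 (HSP90B1, plus), chr5:179698758-179698816 (CANX, plus), chr19:12938364-12938422 (CALR, plus) and chr2:10812833-10812891 (PDIA6, minus). The others lie at chr22:28800583-28800641 (XBP1, minus), chr11:119057360-119057410 (HYOU1, minus), chr7:97872449-97872496 (ASNS, minus) and chr19:33374051-33374098 (CEBPG, plus). All are upstream of an annotated start site, and the motif of HSPA5 spans bases 66 to 48 before that start. HSP90B1 and HYOU1 each hold a second copy, and CRELD2 is the seventh gene with an ERSE.

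The arrays differed in how much they detected, which bears on every value below. A probe was called detected at a detection p-value under 0.01. Genes detected numbered 6712 after aclarubicin, 9654 after doxorubicin, 6269 after the combination and 8843 in untreated cells. Of the 34 measured stress genes, 30, 33, 29 and 33 were detected on these arrays, in that order. Levels are log2 signals after background correction and quantile normalization, which gives all 4 arrays the same distribution. Without scaling between arrays, the median of all 10077 genes differed from untreated by -0.66 log2 on the aclarubicin array, by 0.06 on the doxorubicin array and by -0.92 on the combination array, and with normalization by -0.04, -0.00 and -0.07. A difference from untreated on the aclarubicin or combination array is therefore best read against the typical gene of the same array, and values without scaling are given where they change a statement. The melanocyte marker list had 8 of 12 genes measured (MITF, PMEL, TYRP1 and SOX10 among them), with summed log2 levels of 59.87 to 60.91 on the treated arrays and 63.08 on the untreated one, and MLANA, TYR, DCT and S100B were not measured. Of markers for other cells, 0 of 5 epithelial and 0 of 4 leukocyte genes were measured, and 2 of 5 fibroblast and 2 of 3 endothelial genes were. The fibroblast genes LUM and PDGFRA summed to 13.64 after aclarubicin, 10.55 after doxorubicin, 14.6 after the combination and 11.44 in untreated cells, higher where the disulfide enzymes were higher. The endothelial genes PECAM1 and VWF summed to 10.62, 12.03, 11.1 and 9.92. LUM was not detected after doxorubicin, and VWF was detected only there, so these sums include undetected levels. The part of these marker genes in the results was not tested. Pairs of probes of the same gene were compared over the 1066 genes where both of a pair were detected on every array. The SD per probe was 0.46 log2 in aclarubicin minus untreated, 0.32 in doxorubicin minus untreated and 0.51 in the combination minus untreated. It was 0.17 in the combination minus aclarubicin and 0.57 in doxorubicin minus aclarubicin. Each value is the SD of the gap within a pair after division by the square root of 2, so pairs disagreed by more. This spread between probes is technical and within arrays, and does not measure the spread between replicates.

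**Figure D1:**
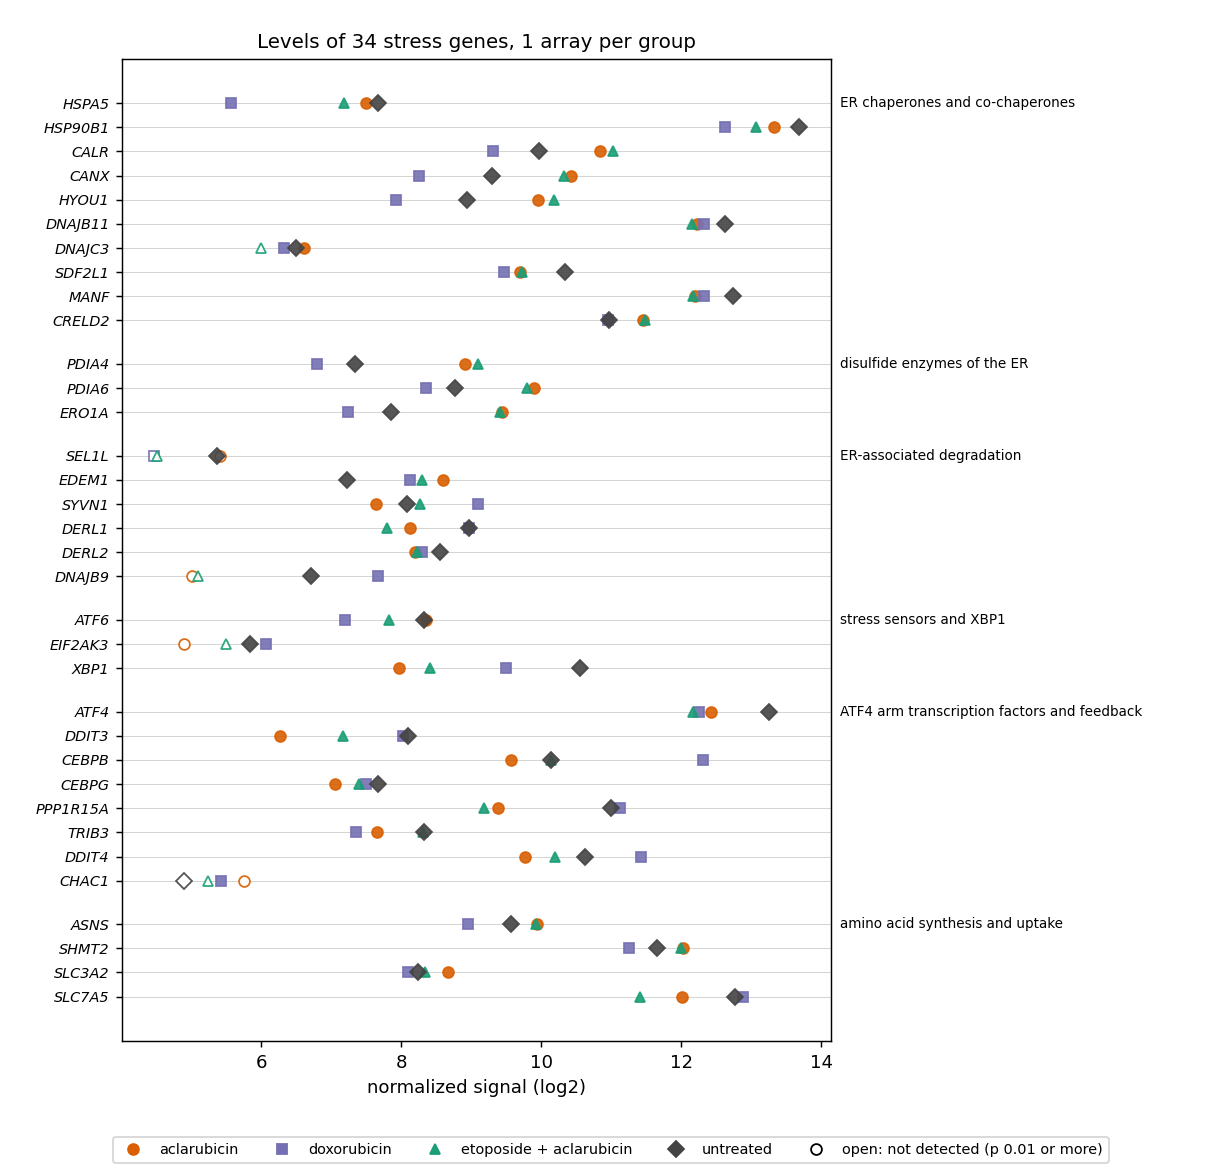
Normalized log2 signal (horizontal axis) of the 34 measured genes, 1 row per gene and grouped by role, on the aclarubicin, doxorubicin, etoposide plus aclarubicin and untreated arrays; open symbols mark arrays where the probe was not detected. XBP1 lay at 7.97, 9.5 and 8.41 on the treated arrays and 10.55 on the untreated one, and CEBPB stood apart on the doxorubicin array at 12.31.

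After aclarubicin the 3 measured enzymes that form disulfide bonds in the ER exceeded their untreated level by 2-fold or more, as did 2 of 10 chaperone genes and 1 of 6 degradation genes. The transcription factor genes XBP1 and DDIT3 and the feedback phosphatase subunit gene PPP1R15A were lower. In all, 6 of 34 genes were at least 2-fold higher and 3 at least 2-fold lower, where 15.0% and 15.4% of all genes were, so neither count is far from the background. Without scaling between arrays the split was 0 higher and 14 lower, where 2.28% of all genes were higher and 34.1% lower. The median of the 34 was -0.36, against -0.04 for all genes, and the values ran from -2.59 to 1.58.

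The disulfide enzymes were the one role with every measured member past 2-fold on the aclarubicin array. ERO1A, the oxidase that recharges the protein disulfide isomerases, gave a deposited signal of 606.2 after aclarubicin and 390.1 in untreated cells, a log2 difference of 1.58 after normalization. PDIA4, an isomerase of the same family of oxidoreductases, gave 403.9 against 282.6 (1.57), and PDIA6 gave 867.4 against 665.3 (1.14). These 3 were the whole measured group. Their signals were thus higher even before any correction. Without scaling between arrays the differences were 0.68, 0.57 and 0.40, under 2-fold. These lay 1.34, 1.23 and 1.06 above the median of all measured genes, which include genes undetected on some arrays.

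Chaperones were mixed after aclarubicin. CANX and CALR encode calnexin and calreticulin, lectins that hold newly made glycoproteins until they fold. CANX had a signal of 1307.3 after aclarubicin and 905.7 in untreated cells (1.14), with its second probe at 0.76, and CALR had 1844.2 against 1313.7 (0.87). HYOU1, an exchange factor of the HSP70 type for the chaperone BiP, had 895.2 against 743.6 (1.01, second probe 0.94). Without scaling CANX differed by 0.54 and HYOU1 by 0.28, still above 0. HSPA5, which encodes BiP itself, had 157.1 against 348.1, and its difference of -0.18 after normalization became -1.33 without scaling. HSP90B1, the ER form of HSP90, had 12366.2 against 11438.1, a difference of -0.35 that turned to 0.11 without scaling. The direction for HSP90B1 was therefore set by the scaling. The other 5 chaperone genes (DNAJB11, DNAJC3, SDF2L1, MANF and CRELD2) lay between -0.65 and 0.50.

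XBP1 had the lowest difference of the 34 after aclarubicin. Its signal was 209.1 after aclarubicin and 1846.0 in untreated cells, a 6.0-fold lower level (-2.59), and a second probe gave -2.61. The value ran from -3.37 to -2.36 over 10 alternatives of processing, more than 2-fold lower in each. Of the other ERSE genes on this array, CANX and PDIA6 were at least 2-fold higher, and CALR (0.87), CRELD2 (0.50), HSPA5 (-0.18) and HSP90B1 (-0.35) were within 2-fold. Centred on probes detected everywhere, CALR and CRELD2 differed by 1.37 and 1.26, past 2-fold. Of the sensors, ATF6 differed by 0.02 (272.0 against 519.4 in signal, -1.02 without scaling), and EIF2AK3 was detected in untreated cells, at 106.7, but not after aclarubicin, at 57.1, so no fold is given.

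Degradation genes did not move as one. EDEM1, a lectin that hands misfolded glycoproteins to the degradation machinery, was 2.58-fold higher after aclarubicin, with a signal of 323.7 against 262.1, but differed by 0.34 without scaling. SYVN1, the ubiquitin ligase HRD1 at the centre of that machinery, differed by -0.44, and DERL1 and DERL2, membrane proteins of the export channel, by -0.84 and -0.37. Without scaling SYVN1, DERL1 and DERL2 differed by -1.57, -1.85 and -1.40, each past 2-fold. DNAJB9, a co-chaperone of BiP that serves degradation and restrains IRE1, was detected at 190.1 in untreated cells but not after aclarubicin, at 58.8, at least 1.44-fold lower. SEL1L, the partner of SYVN1, was near the limit of detection, at 79.3 in untreated cells with a detection p-value of 0.00791, just inside the limit.

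In the ATF4 arm the genes at least 2-fold lower after aclarubicin, with quantile normalization, were DDIT3 and PPP1R15A. DDIT3, which encodes the pro-apoptotic factor CHOP, had a signal of 85.0 after aclarubicin and 455.4 in untreated cells, 3.59-fold lower (-1.84). Its level after aclarubicin, 6.26, was just above the lowest detected level of 6.19 on that array, which limits the precision of the fold. PPP1R15A encodes GADD34, the subunit that directs a phosphatase to eIF2 and so ends the response; it had 580.3 against 2336.0, 3.04-fold lower (-1.60). Both were at least 2-fold lower under all 10 alternatives, with ranges of -3.00 to -1.37 and -2.09 to -1.20. DDIT4, an inhibitor of the growth kinase mTORC1, differed by -0.87, TRIB3, a pseudokinase that restrains ATF4, by -0.67, CEBPG and CEBPB, bZIP partners of ATF4, by -0.61 and -0.57. The probes of ATF4 disagreed: the brightest gave -0.85 and another detected on all arrays gave 0.25, so no direction is given for it. CHAC1, a glutathione-degrading enzyme, was detected only after doxorubicin.

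With quantile normalization, genes of amino acid supply stayed within 2-fold of untreated after aclarubicin. ASNS, asparagine synthetase and a standard ATF4 target, differed by 0.38 (second probe 0.79), SHMT2, the mitochondrial serine hydroxymethyltransferase, by 0.38 and SLC3A2, the heavy chain of amino acid exchangers, by 0.43. SLC7A5, the light chain that carries leucine, differed by -0.76, or 0.41 when arrays were centred on probes detected everywhere. Without scaling ASNS and SLC3A2 differed by -0.26 and -0.58, so their direction depended on it, while SHMT2 stayed above 0 at 0.46. Centred on probes detected everywhere, SHMT2 differed by 1.33, past 2-fold.

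**Figure D2:**
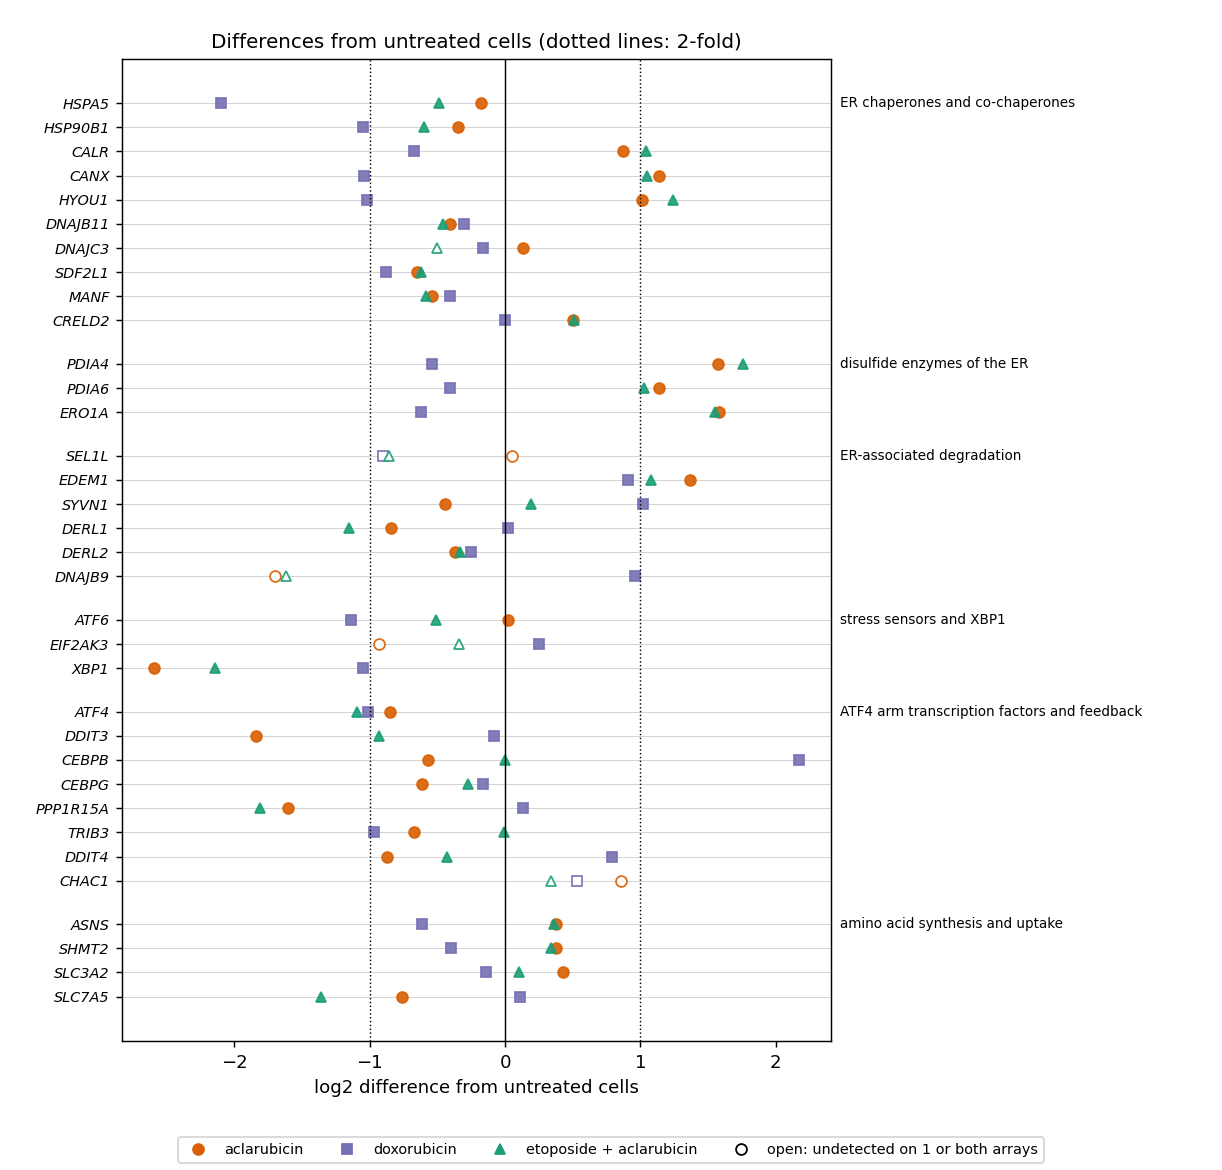
Log2 difference from untreated cells (horizontal axis) of the 34 genes after aclarubicin, doxorubicin and the combination, by role; dotted lines mark 2-fold, and open symbols mark genes undetected on 1 or both arrays. PDIA4, PDIA6 and ERO1A lie right of 1 after aclarubicin and the combination and between -0.62 and -0.41 after doxorubicin.

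After doxorubicin the called folding genes were all lower than in untreated cells. In all, 2 of 34 genes were at least 2-fold higher and 7 at least 2-fold lower, against 11.5% and 9.96% of all genes (without scaling 2 and 4, against 13.2% and 8.57%), and the median was -0.35 against -0.00. None of the 10 chaperone genes exceeded its untreated level by more than 0.04 under any alternative, with CRELD2, at -0.00, the one at the untreated level. HSPA5, HSP90B1, HYOU1 and CANX were at least 2-fold lower. CANX and HYOU1 were the 2 genes called higher after aclarubicin and lower after doxorubicin. With quantile normalization HSPA5, HSP90B1, DNAJB11, SDF2L1 and MANF lay below untreated on both arrays. On the aclarubicin array that direction held under all 10 alternatives for HSPA5 and SDF2L1. For HSP90B1, DNAJB11 and MANF it did not, with highest values of 0.98, 0.80 and 0.66.

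HSPA5 had a signal of 100.7 after doxorubicin and 348.1 in untreated cells, 4.28-fold lower (-2.10), and ranged from -2.88 to -1.42 over the alternatives. A single probe measured it, and its level after doxorubicin was 5.57, not far above the lowest detected level of 5.05 on that array. The remaining called chaperones sat at the threshold. HSP90B1 had 5402.0 against 11438.1 (-1.05), CANX 500.0 against 905.7 (-1.04, second probe -1.29) and HYOU1 416.6 against 743.6 (-1.02, second probe -1.07). Each was between -1.17 and -0.81 under the alternatives, so the direction held while the 2-fold call did not. SDF2L1, a BiP co-factor, lay just outside at -0.88, and CALR at -0.67. The disulfide enzymes also lay below untreated, with ERO1A at -0.62, PDIA4 at -0.54 and PDIA6 at -0.41.

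The mRNAs of ATF6 and XBP1, which encode factors that drive ER chaperone genes, were lower too. Their cleaved or spliced active forms were not measured, and any link to the chaperone levels was not tested. ATF6 had 273.9 after doxorubicin and 519.4 in untreated cells (-1.14), and XBP1 had 992.4 against 1846.0 (-1.05, second probe -1.21). ATF6 ranged from -1.16 to -0.92 and XBP1 from -1.13 to -0.84 over the alternatives. The 2-fold call held under 8 of 10 for ATF6 and 5 of 10 for XBP1. EIF2AK3 differed by 0.25. Of the 9 measured genes with an ERSE or ERSE-II, all 9 lay at or below their untreated level after doxorubicin, from -2.10 to -0.00 with a median of -1.02, where 5012 of all 10077 genes lay above it. Of 18 further measured genes with such a motif outside the 39, 12 lay above, with a median of 0.20. Most of the 9 are chaperone genes already described above. The measured chaperone and disulfide enzyme genes with neither motif also lay below untreated. These were ERO1A (-0.62), PDIA4 (-0.54), MANF (-0.41), DNAJB11 (-0.30) and DNAJC3 (-0.16). After aclarubicin 5 of the 9 lay above untreated.

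Of the degradation genes 1 was called higher after doxorubicin. SYVN1 had a signal of 801.3 against 449.4 in untreated cells (1.02), DNAJB9 360.0 against 190.1 (0.96) and EDEM1 469.2 against 262.1 (0.91). SYVN1 was just inside the threshold and passed it under 2 of 10 alternatives, with a lowest value of 0.68. DNAJB9 and EDEM1 were just outside, at 1.94-fold and 1.88-fold. DERL1 and DERL2 differed by 0.02 and -0.25.

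In the ATF4 arm CEBPB stood out after doxorubicin. It encodes C/EBP-beta, a bZIP factor of stress, inflammation and senescence, and its signal was 4457.2 after doxorubicin and 1442.3 in untreated cells, a 4.49-fold higher level (2.17). This was the largest difference upward among the 34, and it was between 1.63 and 2.17 over the alternatives. ATF4 itself was lower by both probes detected on all arrays, at -1.01 and -1.43. TRIB3, at -0.97, was just outside 2-fold, with 299.7 against 515.1. DDIT3 (-0.08) and PPP1R15A (0.13) stayed near their untreated levels, and DDIT4 differed by 0.79. CHAC1 was detected after doxorubicin only, at 91.0, and its bound against untreated cells was 1.12-fold. Amino acid genes lay between -0.61 for ASNS and 0.11 for SLC7A5.

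Etoposide with aclarubicin gave differences near those of aclarubicin, measured against the same untreated array. There were 7 genes at least 2-fold higher and 5 lower, against 17.4% and 15.5% of all genes. Without scaling the counts were 0 and 16, against 2.31% and 40.4% of all genes. PDIA4 had 375.4 after the combination and 282.6 in untreated cells (1.76), ERO1A 469.7 against 390.1 (1.55) and HYOU1 876.9 against 743.6 (1.24). The other higher genes were EDEM1 (1.08), CANX (1.05), CALR (1.04) and PDIA6 (1.03), all close to 2-fold. Without scaling these 4 differed by -0.33, 0.12, 0.43 and -0.06, so EDEM1 and PDIA6 changed direction. PDIA4, ERO1A and HYOU1 then differed by 0.45, 0.29 and 0.25.

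Lower genes after the combination were led by XBP1, with 232.4 against 1846.0, 4.41-fold lower, and PPP1R15A, with 397.8 against 2336.0, 3.50-fold lower. XBP1 stayed between -3.17 and -1.95 and PPP1R15A between -2.65 and -1.44 over the alternatives. SLC7A5 differed by -1.36 (2447.6 against 6402.0), or -0.18 when arrays were centred on probes detected everywhere. DERL1 differed by -1.15 (157.2 against 749.4), and ATF4 by -1.09 with its other detected probe at 0.13, so ATF4 is given no direction here. DDIT3 was just outside 2-fold at -0.93 and past it under 5 of 10 alternatives, down to -2.40 without scaling, and DNAJB9 and EIF2AK3 were not detected, as after aclarubicin alone.

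Set against aclarubicin alone at the same dose and time, 0 of the 34 genes differed by 2-fold with the combination, and 0.308% of all genes were higher and 0.655% lower by that measure. The median difference of the 34 was -0.03. The widest values among genes detected on both arrays were 0.92 for DDIT3, with 111.3 after the combination and 85.0 after aclarubicin, then 0.66 for TRIB3 (215.7 against 172.6), 0.63 for SYVN1 (209.9 against 172.1) and -0.60 for SLC7A5 (2447.6 against 4677.8). No replicate spread is available to set these against. The DDIT3 signal after aclarubicin lay close to the detection limit, with a detection p-value of 0.00791. SEL1L, at -0.90, and EIF2AK3, at 0.60, were detected on neither array, and DNAJC3, at -0.62, was not detected after the combination.

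The contrast between doxorubicin and aclarubicin does not subtract the untreated array, though all 4 arrays were normalized together. The drug doses differed, 9 and 10 µM, so the values describe both arrays side by side. Doxorubicin exceeded aclarubicin at least 2-fold for 7 of the 34 genes and lay below it for 8, against 17.7% and 18.2% of all genes. Without scaling the split was 11 higher and 5 lower, against 39.8% and 6.17% of all genes. Centred on probes detected everywhere it was 6 and 14, against 20.3% and 21.8%. Of the 29 stress genes detected on all 4 arrays, 6 were higher and 8 lower, against 18.6% and 26.5% of the 5953 such genes. All 3 disulfide enzymes and 4 of 10 chaperones were lower after doxorubicin, and none of either group was higher. Of the ATF4 arm, 4 of 8 genes were higher and none lower, and of the degradation genes 2 of 6 were higher and none lower. ATF4 itself was counted by its brightest probe, at -0.16. Its other probe detected on all 4 arrays gave -1.68, past 2-fold lower. The sensors and XBP1 had 1 of 3 higher and 1 lower, and the amino acid genes had 0 of 4 in either direction. Under the other scalings 1 to 3 of the disulfide enzymes and 4 to 8 of the chaperones were lower, still with none higher, and 3 to 5 of the ATF4 arm genes were higher, with 1 lower when centred on probes detected everywhere.

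**Figure D3:**
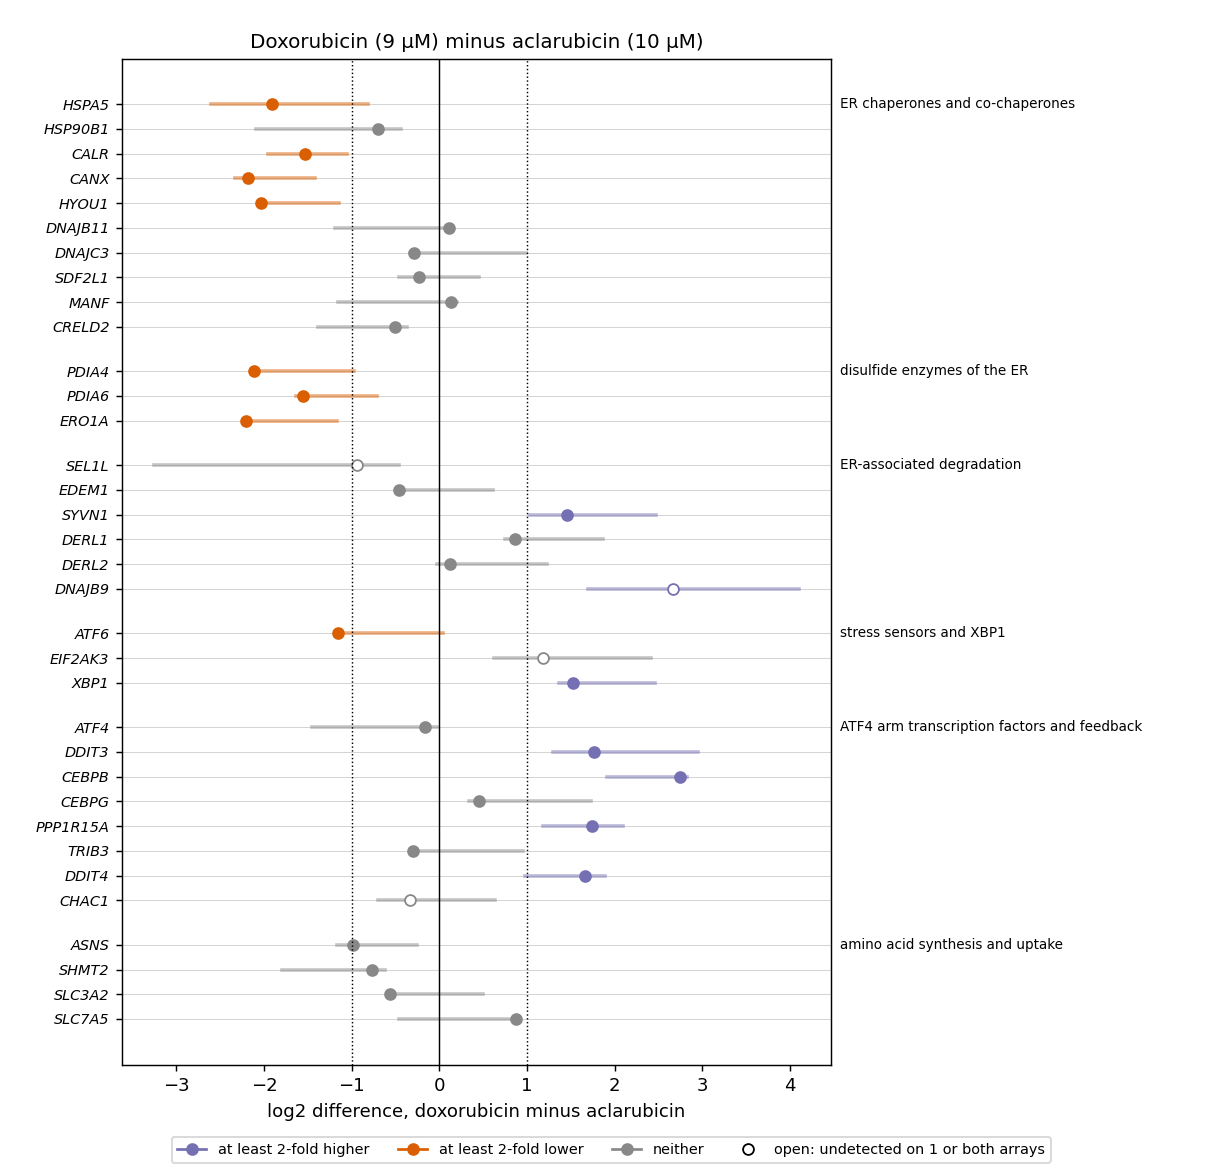
Log2 difference, doxorubicin minus aclarubicin (horizontal axis), for the 34 genes; points are the values reported, lines span the lowest to highest value under the alternatives of processing, and open points were undetected on 1 or both arrays. The lines of CALR, CANX, HYOU1 and ERO1A stay left of -1 and those of XBP1, DDIT3, PPP1R15A, SYVN1, CEBPB and DNAJB9 right of 1.

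Among the lower genes, ERO1A had a signal of 281.6 after doxorubicin and 606.2 after aclarubicin (-2.20), CANX 500.0 against 1307.3 (-2.18), HYOU1 416.6 against 895.2 (-2.03) and CALR 893.7 against 1844.2 (-1.53). These 4 were at least 2-fold lower under every alternative. PDIA4 (-2.11), HSPA5 (-1.91), PDIA6 (-1.55) and ATF6 (-1.16) were called as well. Without scaling PDIA4, HSPA5 and PDIA6 differed by -0.99, -0.84 and -0.74. ATF6 then differed by 0.02, so no direction is given for it here. ASNS was just outside 2-fold at -0.99, with its second probe past it at -1.26.

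On the other side CEBPB had 4457.2 after doxorubicin and 667.7 after aclarubicin, 6.67-fold higher (2.74). DDIT3 had 441.0 against 85.0 (1.76), PPP1R15A 2333.9 against 580.3 (1.74), XBP1 992.4 against 209.1 (1.53, second probe 1.41) and SYVN1 801.3 against 172.1 (1.46). DNAJB9 was detected only after doxorubicin, at 360.0 against 58.8, at least 2.79-fold higher. These 6 were at least 2-fold higher under each alternative that measured them. The aclarubicin level of DDIT3 lay close to the detection limit. DDIT4, with 2747.9 against 777.7 (1.66), was at 0.98 under 1 alternative. XBP1 thus lay below its untreated level on all 3 treated arrays, by the widest margin after aclarubicin.

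Other thresholds gave the following counts, each beside the share of all genes. At 1.5-fold, 7 of the 34 were higher (25.1% of all genes) and 10 lower (22.6%) with aclarubicin, 5 higher (20.6%) and 12 lower (21.4%) with doxorubicin, and 7 higher (25.9%) and 8 lower (22.9%) with the combination. The combination minus aclarubicin had DDIT3, TRIB3 and SYVN1 higher (3.44%) and SLC7A5 lower (4.17%), and doxorubicin minus aclarubicin had 9 higher (25.9%) and 11 lower (25.9%). At 3-fold, 0 were higher (4.13%) with aclarubicin, and XBP1, DDIT3 and PPP1R15A were lower (7.88%). CEBPB was the 1 gene higher (5.42%) and HSPA5 the 1 lower (2.98%) with doxorubicin, while PDIA4 was higher (6.91%) and XBP1 and PPP1R15A lower (8.67%) with the combination. The combination minus aclarubicin had 0 in either direction (0.00992% and 0.0397%), and doxorubicin minus aclarubicin had 4 higher (9.90%) and 5 lower (8.50%).

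Genes of the same pathways outside the 39 were described from 5 further lists. Their counts are to be set against the all-gene shares given above, which were 15.0% higher and 15.4% lower for aclarubicin, 11.5% and 9.96% for doxorubicin and 17.4% and 15.5% for the combination. Without scaling these shares were 2.28% and 34.1%, 13.2% and 8.57%, and 2.31% and 40.4%. Over the 5953 genes detected on all 4 arrays, with normalization, they were 22.7% and 15.8%, 12.3% and 12.2%, and 26.0% and 17.7%. Other ER chaperones and folding enzymes had 26 measured genes. On the aclarubicin array 8 of them were higher by 2-fold or more and 0 lower, on the doxorubicin array 0 and 4, and on the combination array 10 and 0. PPIB, the ER cyclophilin B, stood at 1.97 with aclarubicin and 2.22 with the combination, and FKBP14, another prolyl isomerase, by 1.91 and 2.03. FKBP11, at -1.38, and DNAJC10, an ER disulfide reductase, at -1.35, were the lowest after doxorubicin. The medians of this list were 0.78, -0.01 and 0.86 in that order of groups. Without scaling the counts were 2 and 2, 0 and 2, and 2 and 4, with medians of 0.39, 0.02 and 0.13, so the absence of lower genes with aclarubicin and the combination came with the scaling.

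The other degradation factors had 8 of 21 genes higher and 5 lower after aclarubicin, 1 and 3 after doxorubicin, and 8 and 4 after the combination, against 0 and 6, 1 and 2, and 0 and 9 without scaling. ERLIN2, which anchors a ubiquitin ligase in the ER membrane, differed by 1.63 after aclarubicin, and FAF2, which recruits the VCP segregase, by -1.46. UBE2J1, the ubiquitin-conjugating enzyme of the ER, was the lowest after doxorubicin at -1.62. Translocon and N-glycosylation genes had 4 of 31 higher and 2 lower after aclarubicin, 1 and 7 after doxorubicin, and 5 and 2 after the combination, against 2 and 2, 1 and 5, and 1 and 7 without scaling. SSR3, a subunit beside the translocon, differed by 2.01 after aclarubicin and SRP68, of the signal recognition particle, by -1.94, while SRP72, its partner, differed by -1.70 after doxorubicin.

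Other ATF4 targets divided evenly, with 4 of 26 higher and 4 lower after aclarubicin, 5 and 4 after doxorubicin, and 4 and 5 after the combination, against 1 and 8, 7 and 3, and 1 and 10 without scaling. ATF3, a bZIP repressor induced by many stresses, differed by 3.30, 3.45 and 3.94 in that order. GDF15, a secreted stress cytokine that is also a p53 target, differed by -1.67 after aclarubicin and 4.0 after doxorubicin. SLC7A1, the arginine carrier, stood at -2.29 with aclarubicin and -2.81 with the combination. EIF4EBP1, a brake on translation, differed by 1.56 and 1.68 on those arrays, and ALDH18A1, of proline synthesis, by -1.74 after doxorubicin. Other sensors, eIF2 kinases and regulators had 3 of 26 higher and 3 lower after aclarubicin, 3 and 2 after doxorubicin, and 4 and 5 after the combination, against 2 and 9, 3 and 1, and 2 and 11 without scaling. CEBPD, a relative of CEBPB, stood at 2.82, 1.24 and 3.67 in the same order, and EIF2B4, a subunit of the exchange factor for eIF2, by -1.47 after aclarubicin and -1.06 after doxorubicin.

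**Figure D4:**
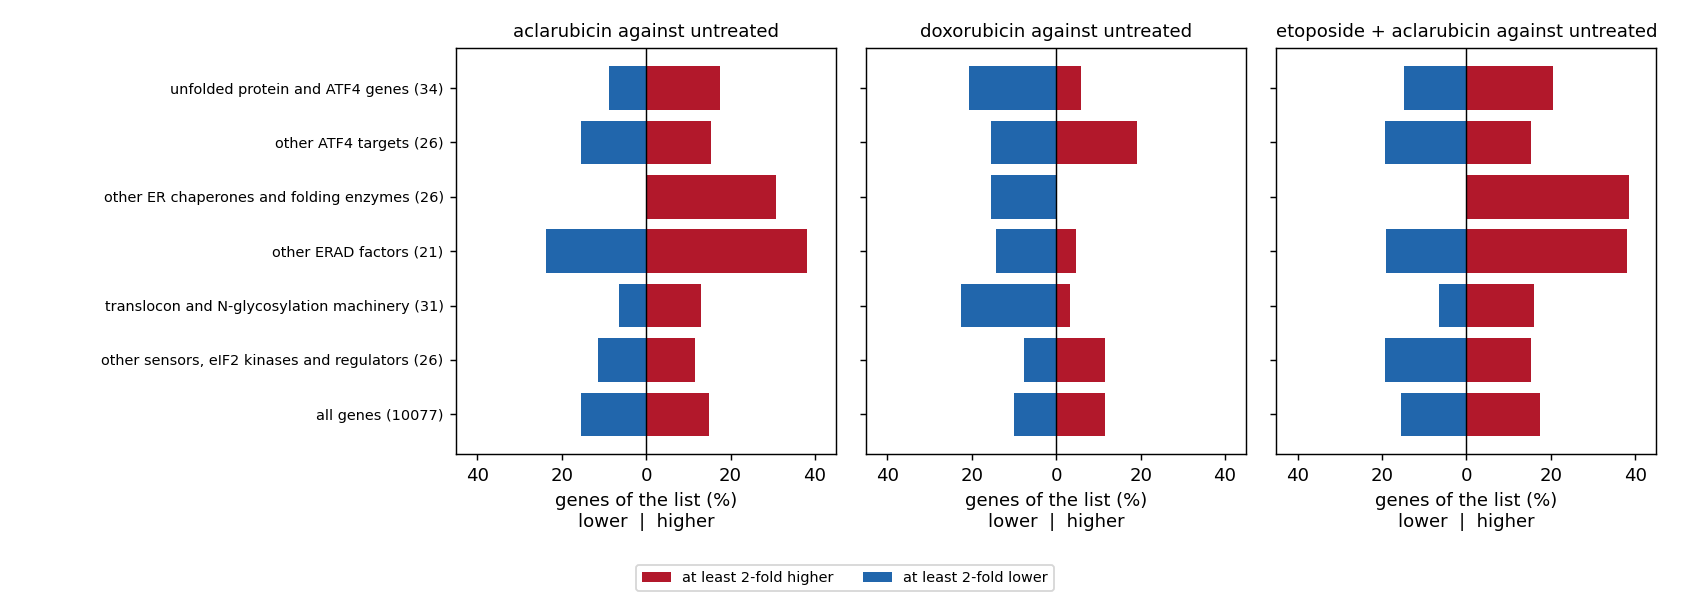
Share of the measured genes of each list (%) at least 2-fold higher (right, red) or lower (left, blue) than in untreated cells, for aclarubicin, doxorubicin and the combination, with all 10077 genes as the last row and the number measured in brackets. The other ER chaperones and folding enzymes have no lower gene after aclarubicin or the combination under the quantile normalization plotted (2 and 4 lower without scaling) and no higher gene after doxorubicin.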

How the data were processed

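Per the file headers, the deposited tables hold an unnormalized intensity for each probe on each array and a detection p-value beside it. The authors' normalized table behaves as log2 at the bright end, its scale at the dim end and its centring are unknown, and it equals the series value table. The submitters' processing notes name lumi. The sources used here do not state how signals were summarized, background-corrected or tested for detection. Column medians of the normalized values were 2.18, 2.30, 2.12 and 2.28 for aclarubicin, doxorubicin, the combination and untreated cells.

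Signals were background-corrected by normexp with the control level inferred from detection p-values (offset 16), quantile-normalized and taken to log2 (limma 3.58.1, R 4.3.3; Python 3.11.15). Of 48803 probes, 27578 carried 1 gene symbol, 13 several and 21212 none here; 27541 matched a current gene table and 0 symbols changed. The probe of highest mean level among those detected (p-value under 0.01) on at least 1 array stood for a gene. Where only 1 of 2 arrays detected a gene, the fold is a lower bound, with the undetected side set to the lowest level detected on that array or to its measured level, whichever is higher. Calls used 2-fold and no test. The scripts were tested on simulated arrays built from the untreated array, with known changes in bright probes. That simulation held no built-in difference in detection or overall signal between arrays. It therefore does not bear on the choice of scaling or on dim probes. Precision is limited by having 4 arrays. The genes, their roles, the lists and the alternatives were chosen with earlier results of these data known. Genes at least 2-fold from untreated on any treated array, those within 0.2 log2 of that threshold and the 3 sensors were named with values. From each further list, names were taken from its 2 highest and 2 lowest genes per comparison.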

Additional observations from a re-analysis of the deposited data

How the results depend on the processing

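Alternatives numbered 12, among them median scaling over the probes detected on all 4 arrays, which was chosen after seeing the data. No paired analysis was possible because each group has 1 array. The scaling between arrays moved the counts for aclarubicin and the combination, other choices did so too, and the share of all genes moved with them. Under median scaling 2.09% of all genes were higher and 34.8% lower for aclarubicin, 2.37% and 40.1% for the combination, and 40.5% and 5.90% for doxorubicin minus aclarubicin. Without background correction the shares were 11.8% and 12.7% for the combination and 8.01% and 6.22% for doxorubicin, and under cyclic loess 12.1% and 19.4% for aclarubicin, 14.7% and 21.5% for the combination and 12.7% and 10.9% for doxorubicin. Counts of stress genes at least 2-fold higher and lower were, for aclarubicin minus untreated, 0 and 14 under median scaling, 0 and 14 without scaling and 3 and 5 under cyclic loess, and their median was -0.57 under median scaling and 0.32 over detected probes. For the combination minus untreated they were 0 and 16 under median scaling and without scaling, with medians of -1.11 and -1.12, and 0.10 over detected probes; 3 were higher under cyclic loess, 4 without background correction and 4 in the authors' normalized values. Doxorubicin minus untreated had 1 higher without background correction, with an offset of 50, under cyclic loess and with the mean over probes. It had 3 lower without background correction, 4 with an offset of 50, under median scaling, without scaling and over detected probes, and 2 under cyclic loess and in the authors' values. Doxorubicin minus aclarubicin had 11 higher and 5 lower under median scaling and without scaling (medians 0.45 and 0.43), 14 lower over detected probes and a median of -0.04 under cyclic loess. The combination minus aclarubicin had medians of -0.25 and -0.29 under median scaling and without scaling, and 1 gene higher in the authors' values. At 1.5-fold the lower counts were 10 for aclarubicin, 12 for doxorubicin (5 higher) and 8 for the combination, and 3 higher and 1 lower for the combination minus aclarubicin. At 3-fold, 0 were higher after aclarubicin, 1 higher and 1 lower after doxorubicin, 1 and 2 after the combination, and 4 and 5 in doxorubicin minus aclarubicin. Among single genes, PDIA6 reversed to -0.05 and -0.06 and EDEM1 to -0.32 and -0.33 in the combination minus untreated under median scaling and without scaling, ATF6 to 0.04 and 0.02 in doxorubicin minus aclarubicin, and ATF4 to 0.27 in the combination minus untreated over detected probes. The scalings differ by construction in the level they set equal between arrays. For other changes the cause was not tested. Dim probes limit DNAJB9, EIF2AK3, SEL1L and CHAC1 to bounds.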

Other observations

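Outside the 39 genes, 33 more carried an ERSE or ERSE-II in the 250 bases before a start site, and 18 of them were measured. After doxorubicin none of the 18 was at least 2-fold higher or lower; their differences from untreated ran from -0.68 to 0.68 with a median of 0.20, and 6 lay below 0. The 9 measured stress genes with such a motif, most of them chaperone genes, had a median of -1.02 and 5 at least 2-fold lower on that array. Measured chaperone and disulfide enzyme genes with neither motif also lay below untreated there. After aclarubicin 3 of the 18 were higher and 1 lower, with a median of -0.11, and after the combination 4 were higher and 2 lower, with a median of 0.11. The difference between the 9 and the 18 genes was not tested.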
